A study of Macaca mulatta with 2 samples.

Results

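The proteasome subunits were measured with 61 probes of 43 genes, out of 41000 probes on each array. They were chosen by name: every non-control probe whose gene symbol in the scanner files was PSMA, PSMB, PSMC, PSMD, PSME, PSMF or PSMG followed by a number. The rule uses no measured value, but this gene group was picked for description with earlier results of these data known. All 61 probe descriptions name the proteasome, and all 43 symbols stood in the macaque gene table. Of the 61 probes, 59 probes of 42 genes passed the filter on dim signals and entered the test. Each of the 59 was well above background in all 4 channels. The testis-specific alpha subunit PSMA8 was not well above background in any channel. The second PSMD5 probe, A_23_P43434, was above it only in the pubertal culture of array 1.

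The RNA came from primary Sertoli cell cultures of rhesus macaques. These cells line the seminiferous tubule and nourish the germ cells. Each of the 2 arrays set 1 pubertal culture against 1 infant culture, each under its own number in the labels, so that 4 cultures were read in all. The labels do not say whether a culture pooled several animals. Infant males were below 3 months of age. Pubertal males were 18 to 22 months old, with puberty brought on early by pulses of gonadotropin-releasing hormone (GnRH, 0.15 µg/min in 2-min pulses, 3 h apart, over 4 to 5 weeks). All 4 cultures were kept for 24 h with FSH (follicle-stimulating hormone, 5 ng/ml) and testosterone (100 nM), so the comparison is one of stages under the same hormones, and animal age and GnRH treatment cannot be told apart. Pubertal RNA was in Cy5 on array 1 and in Cy3 on array 2. A ratio below is always the log2 of pubertal over infant intensity, and a level is the normalised log2 intensity of 1 culture. Levels of different probes are not comparable with each other.

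The proteasome is the large protease of the cytosol and nucleus that degrades proteins marked with ubiquitin. Its barrel-shaped 20S core has outer rings of alpha subunits, which gate the channel, and inner rings of beta subunits, of which PSMB5, PSMB6 and PSMB7 carry the active sites. PSMB8, PSMB9 and PSMB10 replace these under interferon and in immune cells to form the immunoproteasome. The 19S cap has a base with a ring of ATPases (PSMC), which unfold substrates, and non-ATPase subunits (PSMD), which bind and remove ubiquitin chains. Other caps are the activators of the PSME family, and PSMF1 was described as an inhibitor of the core.

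The probes are 60 bases of human sequence, with positions on the human build hg17, and 21 of the 61 span an exon junction, their genomic span being longer than the probe. Macaque RNA was bound to human sequence, and mismatches of single probes were not examined here. The probes of the active-site subunits and of their inducible counterparts are shown in lower case, since they name the targets that tell the constitutive core from the immunoproteasome. They lie at chr14:22565325-22565384 (minus strand) for PSMB5, chr17:4648362-4648547 (plus) for PSMB6, chr9:124195445-124195504 (minus) for PSMB7, chr6:32918001-32918468 (minus) for PSMB8, chr6:32931896-32931955 (plus) for PSMB9 and chr16:66526048-66526232 (minus) for PSMB10.
PSMB5: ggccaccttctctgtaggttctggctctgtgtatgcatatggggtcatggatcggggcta
PSMB6: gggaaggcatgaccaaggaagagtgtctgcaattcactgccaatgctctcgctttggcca
PSMB7: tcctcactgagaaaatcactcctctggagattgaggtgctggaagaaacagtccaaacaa
PSMB8: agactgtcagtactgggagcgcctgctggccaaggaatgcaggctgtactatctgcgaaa
PSMB9: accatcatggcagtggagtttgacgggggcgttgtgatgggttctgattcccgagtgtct
PSMB10: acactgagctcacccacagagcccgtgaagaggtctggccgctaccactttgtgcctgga

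The next set holds the probe with the lowest ratio, that of PSMD9 (chr12:120816553-120816951, plus strand), and the 2 PSMD12 probes (chr17:62767568-62767627 and chr17:62767588-62768780, minus strand). Capitals mark the 40 bases that both PSMD12 probes hold, so these are not independent readings of the gene.
PSMD9 A_23_P203994: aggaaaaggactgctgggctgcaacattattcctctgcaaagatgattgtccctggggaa
PSMD12 A_23_P77876: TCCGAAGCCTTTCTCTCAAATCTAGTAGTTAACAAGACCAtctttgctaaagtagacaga
PSMD12 A_32_P12639: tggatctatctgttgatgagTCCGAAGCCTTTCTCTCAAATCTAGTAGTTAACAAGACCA

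PSMC6, an ATPase of the base, was read by 4 probes spread along the transcript (chr14:52257595-52257654, chr14:52255492-52257373, chr14:52260473-52263994 and chr14:52264017-52264076, plus strand, in the order shown). The PSMC4 probe (chr19:45177828-45177887, plus strand) is shown with them because it shares 15 bases, in capitals, with the second of the PSMC6 probes. This was the longest run that probes of different proteasome genes had in common.
PSMC6 A_23_P128930: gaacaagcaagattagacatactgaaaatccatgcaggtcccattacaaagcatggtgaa
PSMC6 A_24_P792734: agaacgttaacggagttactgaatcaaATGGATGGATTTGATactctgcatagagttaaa
PSMC6 A_32_P7118: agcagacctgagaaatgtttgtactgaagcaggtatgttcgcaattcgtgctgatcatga
PSMC6 A_24_P381625: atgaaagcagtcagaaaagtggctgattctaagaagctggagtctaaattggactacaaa
PSMC4 A_24_P91310: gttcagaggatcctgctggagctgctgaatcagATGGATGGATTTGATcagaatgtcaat

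No difference between the stages was detected in the proteasome genes. In limma's test no proteasome probe passed (smallest adjusted p = 1.00), and none of the 25774 probes tested on the array did (0%). At an unadjusted p under 0.05, 1 proteasome probe passed, that of PSMD9, against 1044 probes in all (4.05%). The median ratio of the 59 probes was 0.07 on array 1 and 0.01 on array 2, beside 0.02 and -0.01 over all probes tested. With n = 2 array pairs, limma's test drew 4.333 degrees of freedom from the prior over all probes and 1 from the residuals, so its SE reflects mostly the spread shared by all probes. A sign-flip test of a single probe could not go below 0.5.

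By direction, 16 proteasome probes were higher in pubertal cells on both arrays (27.1%, against 23.4% of all probes) and 12 were lower on both (20.3%, against 21.9%). The remaining 31 had opposite signs, and both shares lie near those of the array as a whole. By gene, 8 genes were higher with every probe on both arrays, 9 were lower, 19 had opposite signs throughout and 6 were mixed. No share over all genes is given for this rule. With only the brightest probe of each gene, 9 of 42 were higher on both arrays (23.47% of all probes there) and 11 lower (21.89%). These counts rest on the loess normalisation: with each array only centred on the median of its non-control spots, the medians of the 25774 probes tested moved to 0.57 and -0.37, and 2 proteasome probes were above 0 (PSMD12 A_23_P77876 and PSME3 A_24_P344307) and 1 below 0 (PSMB8) on both arrays. Of all probes tested, 11.61% were above 0 and 10.25% below 0 on both arrays with that centring. Directions on single arrays are given after loess.

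No proteasome probe was at least 2-fold higher on both arrays (0.303% of all probes were), and none at least 2-fold lower on both (0.299%). PSMB4 on array 1 and PSMD9 on array 2 were the only proteasome probes past 2-fold on either array, 3.39% of the 59, against 9.51% of all. The spread was otherwise much that of the array: 59.3% of proteasome probes and 61.8% of all lay within 0.5 of 0 on both arrays. Ratios reached from -0.70 to 1.14 on array 1 and from -1.37 to 0.77 on array 2. The moderated standard error (SE) of a mean ratio was 0.24 to 0.36 (median 0.26). For 46 of the 59 probes (78.0%), the 95% interval of the mean ratio lay inside 2-fold either way, as it did for 71.0% of all. Smaller differences were not resolved for these probes.

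**Figure D1:**
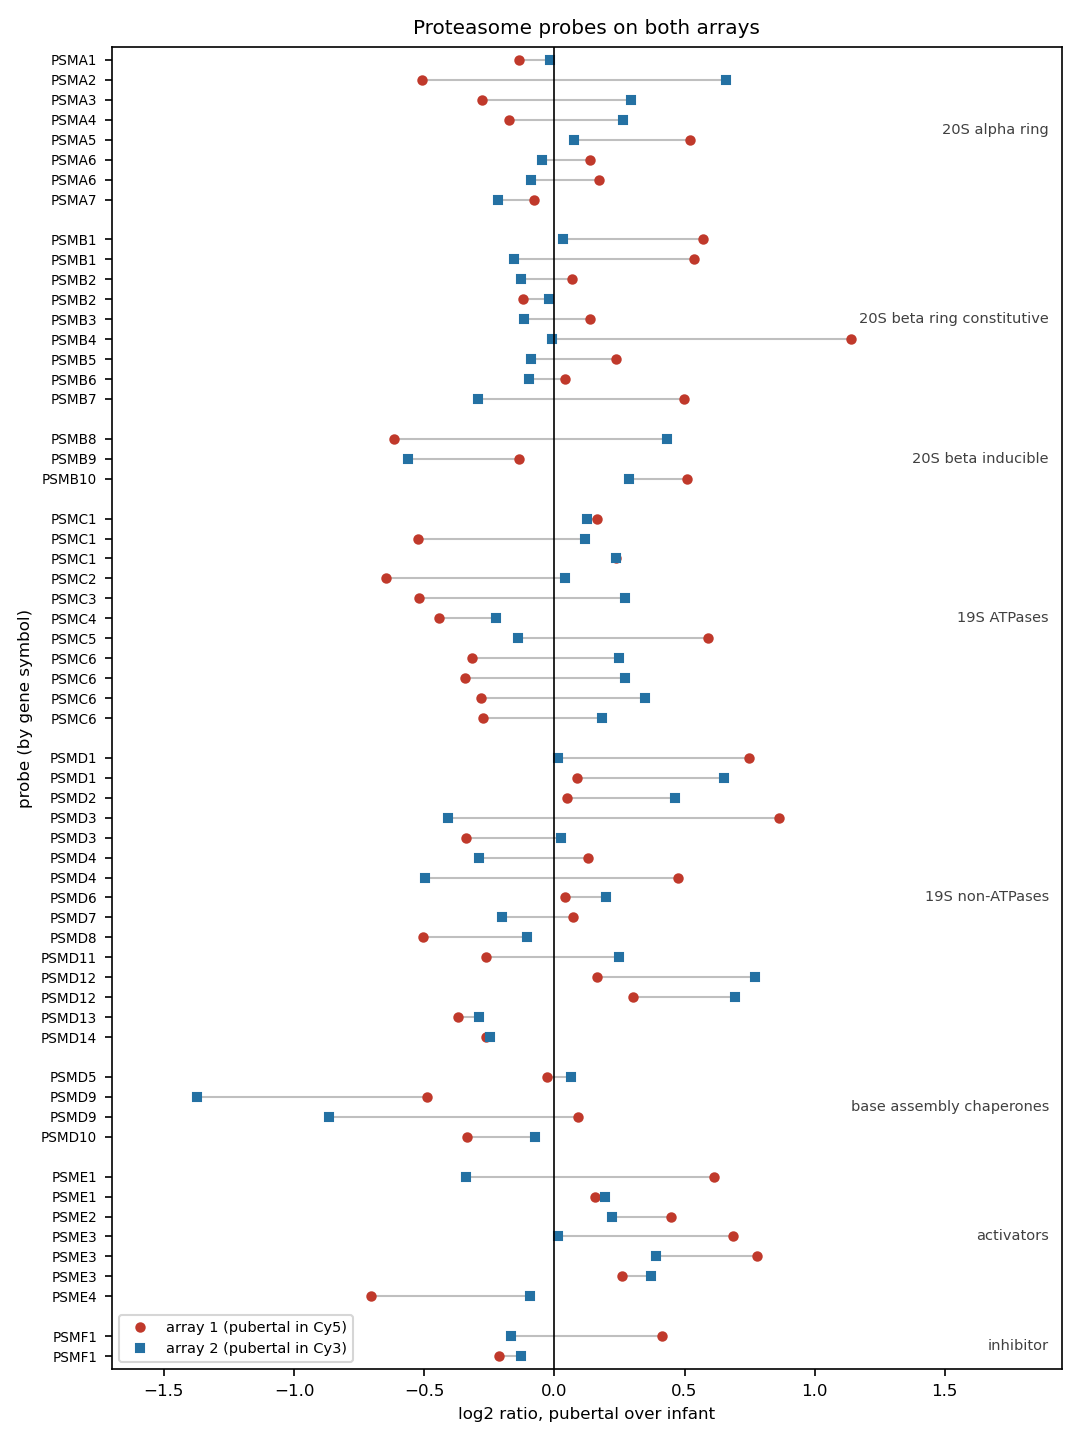
Log2 ratio of pubertal over infant intensity (horizontal axis) for each of the 59 proteasome probes tested, named by gene and ordered by role, with array 1 as circles and array 2 as squares. A grey line joins the 2 arrays of a probe; many lines cross 0, and 31 probes had opposite signs on the arrays after loess.

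Across the 59 probes the ratios of the arrays showed little relation (Pearson's r = -0.04, Spearman's rho = -0.11, against -0.07 and -0.11 over all probes, with probes of 1 array sharing its RNA and dyes). A sign shared by both arrays in the dye direction means opposite signs in pubertal over infant. There, 17 proteasome probes were higher in Cy5 on both arrays (28.8%, against 29.2% of all), and 14 were higher in Cy3 (23.7%, against 25.5%). Dye effects and differences between the animals of the pairs cannot be told apart in that direction.

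**Figure D2:**
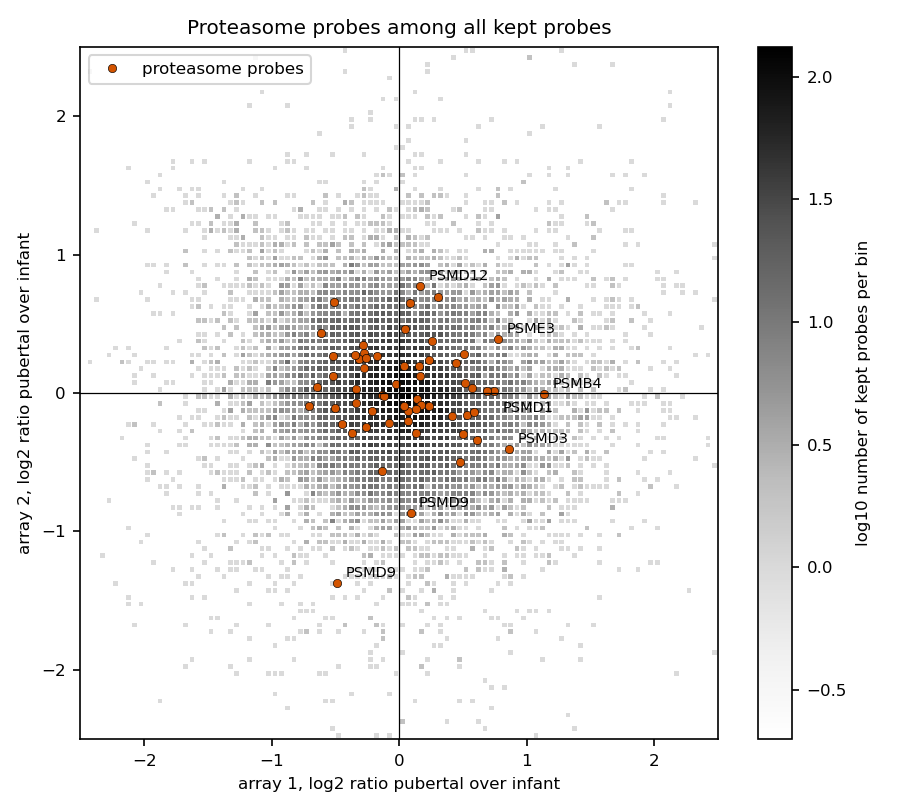
Log2 ratios of pubertal over infant on array 1 (horizontal) and array 2 (vertical) for the 59 proteasome probes (orange), over all probes tested (grey squares, darker where more probes fall in a bin; the axes stop at 2.5 either way). The proteasome probes sit in the dense centre with r = -0.04, and those named lie furthest out, with PSMD9 at -0.49 and -1.37.

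Levels were also set against each other across arrays, asking that both pubertal cultures exceed both infant ones. That held for 11 proteasome probes (18.6%, against 15.6% of all), namely PSMA5, PSMD1 and PSMD12 with both of their probes, PSMD2, PSMD6, 1 probe of PSME1, PSME2 and 2 of 3 probes of PSME3. The reverse held for 6 (10.2%, against 14.1%), namely PSMC4, PSMD8, PSMD9 with 1 probe, PSMD13, PSMD14 and PSME4. For the other 42 probes the levels of the stages overlapped.

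The alpha ring had 8 tested probes of 7 genes, and their median ratio was -0.11 on array 1 and 0.03 on array 2. PSMA5 was higher on both arrays, with ratios of 0.52 and 0.08. PSMA1 (-0.14 and -0.02) and PSMA7 (-0.08 and -0.22) were lower on both, but their mean ratios were above 0 with median centring. PSMA2 had the widest split of the ring. Its levels were 12.79 in the pubertal and 13.30 in the infant culture of array 1, then 13.54 and 12.87 on array 2, giving ratios of -0.51 and 0.66. PSMA3 (-0.28 and 0.29) and PSMA4 (-0.17 and 0.26) were split the same way. The 2 PSMA6 probes, which share 35 bases, read 0.14 and 0.17 on array 1 and -0.05 and -0.09 on array 2. PSMA8, measured at background, has no bound on its ratio.

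The constitutive beta ring had 9 probes of 7 genes, with medians of 0.24 and -0.10. Of these, 7 were higher in Cy5 on both arrays and none in Cy3, so that pubertal exceeded infant on array 1 and lay below it on array 2 in these 7. Over all probes tested, 29.2% were higher in Cy5 on both arrays and 25.5% in Cy3. Among the active-site subunits, PSMB5, which cleaves after hydrophobic residues, had levels of 14.71 (pubertal) and 14.47 (infant) on array 1 and of 14.72 and 14.81 on array 2. All 4 cultures thus lay close together. PSMB6, the caspase-like subunit, had 13.58 and 13.54 on array 1 and 13.88 and 13.98 on array 2. PSMB7, the trypsin-like subunit, had 14.83 and 14.33, then 14.62 and 14.92. In none of the 3 did the stages separate. Their mean ratios were 0.07 ± 0.25 (PSMB5, moderated SE, n = 2), -0.03 ± 0.24 (PSMB6) and 0.10 ± 0.30 (PSMB7), with 95% intervals of -0.56 to 0.70, -0.64 to 0.58 and -0.64 to 0.85.

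Of the structural beta subunits, PSMB4 had the highest ratio of any proteasome probe on array 1. Its pubertal level was 12.75 against 11.61 for the infant on array 1, and 13.01 against 13.02 on array 2. The infant culture of array 1 was thus the low one among cultures that otherwise lay within 12.75 and 13.02. The mean ratio was 0.56 ± 0.35 with adjusted p = 1.00. PSMB1 was similar on array 1, at 0.57 and 0.53 with its 2 probes, and read 0.03 and -0.16 on array 2. PSMB2 (0.07 and -0.12 on array 1, -0.13 and -0.02 on array 2) and PSMB3 (0.14 and -0.11) stayed near 0.

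The inducible subunits, each read by 1 probe, did not share a direction. PSMB10, the counterpart of PSMB7, had levels of 10.14 (pubertal) and 9.63 (infant) on array 1 and of 10.67 and 10.38 on array 2. It was higher within each pair, although the infant culture of array 2 exceeded the pubertal one of array 1. Its mean ratio was 0.40 ± 0.24. PSMB9, the counterpart of PSMB6, was lower within each pair, with levels of 8.71 and 8.85, then 8.12 and 8.68. Its mean ratio was -0.35 ± 0.26. PSMB8, the counterpart of PSMB5, was split, with 8.12 and 8.74 on array 1 and 8.94 and 8.51 on array 2. None of the 3 passed the test (adjusted p = 1.00 in limma), and the immunoproteasome genes had no direction in common.

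**Figure D3:**
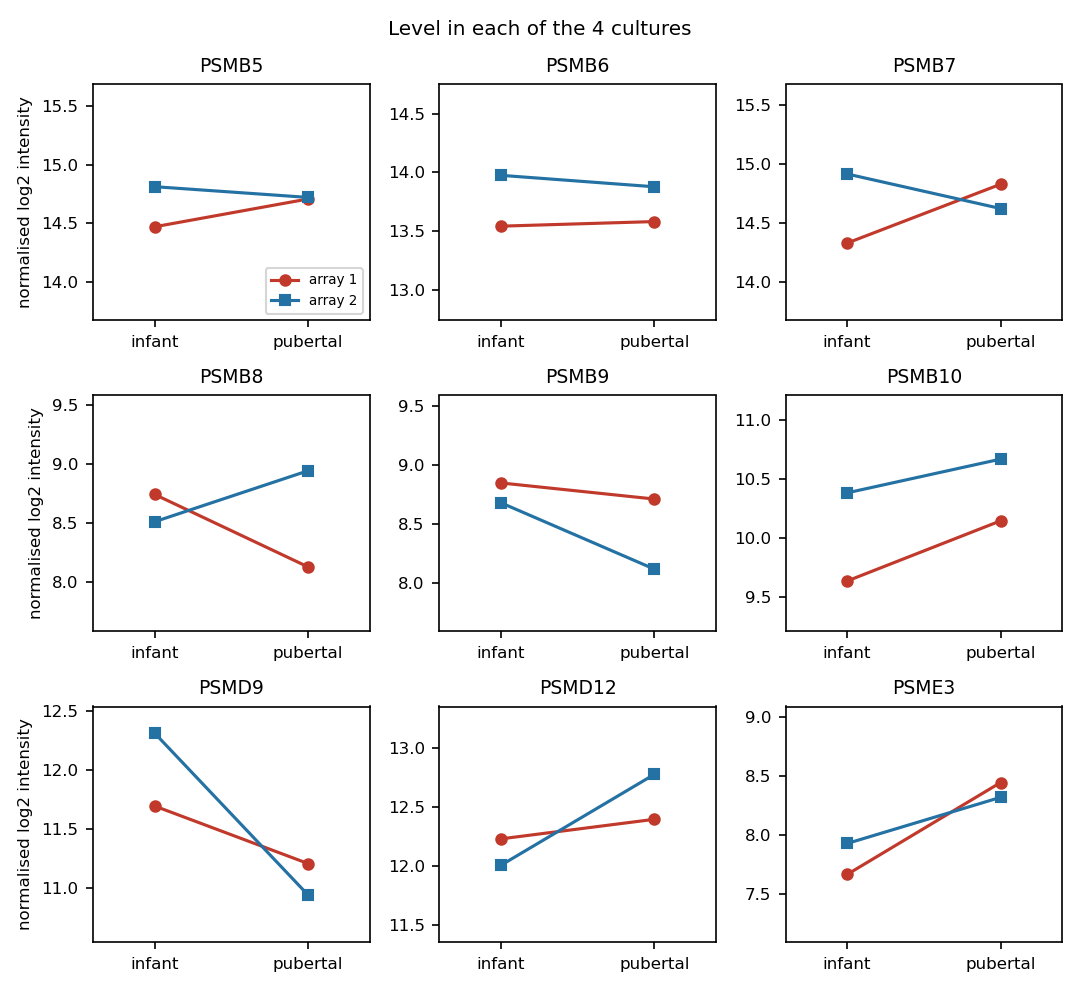
Normalised log2 intensity in each of the 4 cultures, infant at the left and pubertal at the right of each panel, with a line joining the cultures of 1 array (circles array 1, squares array 2), for the active-site subunits, their inducible counterparts, PSMD9 (A_23_P203994), PSMD12 (A_23_P77876) and PSME3 (A_24_P344307). Each panel covers 2 log2 units around its own centre; after loess both lines slope down for PSMD9 and PSMB9 and up for PSMD12, PSME3 and PSMB10, while those of PSMB8 cross.

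The ATPases of the 19S base had 11 probes of 6 genes, with medians of -0.31 and 0.18. In contrast to the beta ring, 7 of the 11 were higher in Cy3 on both arrays (25.5% of all probes were) and 1 in Cy5 (29.2% of all). Of these 7 probes, 4 are of PSMC6 alone. That difference in pattern was not tested. All 4 PSMC6 probes printed above carried it: ratios on array 1 were -0.31, -0.28, -0.27 and -0.34, and on array 2 0.25, 0.35, 0.18 and 0.27, in the printed order. Their means lay between -0.05 and 0.03. The probes thus gave nearly the same reading of both pairs along the transcript, and the pairs had opposite signs.

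PSMC4 was the only ATPase lower on both arrays. Its levels were 11.18 (pubertal) and 11.62 (infant), then 11.19 and 11.41, so both pubertal cultures lay below both infant ones, with a mean ratio of -0.33 ± 0.24. The PSMC6 probe that shares 15 bases with it had opposite signs on the arrays. PSMC2 (-0.65 and 0.04) and PSMC3 (-0.52 and 0.27) were lower on array 1 only, and PSMC5 (0.59 and -0.14) was higher there only. Of the 3 PSMC1 probes, A_24_P347488 (0.17 and 0.12) and A_32_P9700 (0.24 and 0.24) were higher on both arrays. The third, A_32_P57870, read -0.52 and 0.12, although it shares 50 bases with A_24_P347488.

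The non-ATPase subunits of the 19S cap had 15 probes of 11 genes (medians 0.07 and 0.01). On both arrays 6 probes were higher (23.4% of all probes were) and 3 lower (21.9% of all). PSMD1 and PSMD12 enter the 6 with 2 probes each, and those of PSMD12 share 40 bases. The class was not tested as a group. PSMD12, a lid subunit, had the highest mean ratios among them. With A_32_P12639 the pubertal cultures read 12.76 and 12.92 and the infant ones 12.46 and 12.22. With A_23_P77876 they read 12.40 and 12.78 against 12.23 and 12.01. Both pubertal cultures exceeded both infant ones with either probe, by mean ratios of 0.50 ± 0.25 and 0.47 ± 0.27, and neither passed the test (adjusted p = 1.00 in limma).

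PSMD1, a large scaffold subunit of the base, was also higher on both arrays with both probes, but the probes placed the difference on different arrays. A_23_P209740 read 0.75 and 0.01, and A_24_P128205 read 0.09 and 0.65. PSMD2, the other scaffold of the base, read 0.05 and 0.46, and the lid subunit PSMD6 read 0.04 and 0.20. On the lower side were PSMD14, the lid enzyme that cuts ubiquitin chains from substrates (-0.26 and -0.25), PSMD13 (-0.37 and -0.29) and PSMD8 (-0.50 and -0.11). Lid subunits thus lay on either side, while the base scaffolds PSMD1 and PSMD2 both lay on the higher side.

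The remaining non-ATPases were split between arrays. PSMD3 had the widest gap of all proteasome probes, with 0.86 and -0.41 by A_23_P26783, while its other probe A_24_P289726 read -0.34 and 0.03. The ubiquitin receptor PSMD4 read 0.13 and -0.29 by A_23_P12168 and 0.48 and -0.50 by A_32_P435367. PSMD7 (0.07 and -0.20) and PSMD11 (-0.26 and 0.25) lay closer to 0.

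PSMD5, PSMD9 and PSMD10 are chaperones that help to build the base and are not part of the finished cap. PSMD9 had the lowest ratio of all proteasome probes. With A_23_P203994 its levels were 11.20 and 10.94 in the pubertal cultures and 11.69 and 12.31 in the infant ones, so the stages did not overlap. The mean ratio was -0.93 ± 0.31, or 1.91-fold lower in pubertal cells, with a 95% interval of -1.71 to -0.16, unadjusted p = 0.0268 and adjusted p = 1.00 in limma. The ratio was -0.49 on array 1 and -1.37 on array 2, so array 2 alone took it past 2-fold.

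The other PSMD9 probe, A_24_P116017, did not repeat this on array 1. It is a dimmer probe, with levels of 7.03 (pubertal) and 6.94 (infant) on array 1 and of 6.98 and 7.84 on array 2. Only the infant culture of array 2 stood out, and the ratios were 0.09 and -0.87. PSMD10, also known as gankyrin, read -0.34 and -0.07, and the bright PSMD5 probe read -0.03 and 0.06.

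The activators had 7 probes of 4 genes, of which 5 were higher on both arrays (medians 0.45 and 0.20), where 23.4% of all probes were. Of the 5 probes 3 are of PSME3, so by gene PSME2 and PSME3 were higher with every probe. The class was not tested as a group. PSME3, the nuclear activator PA28 gamma, was higher on both arrays with all 3 of its probes. A_24_P344307 had pubertal levels of 8.45 and 8.32 and infant levels of 7.67 and 7.93, with a mean ratio of 0.59 ± 0.25 and a 95% interval of -0.06 to 1.23. The stages did not overlap. A_23_P164141 read 0.69 and 0.02, and A_24_P352864 read 0.26 and 0.37. The 3 means lay between 0.32 and 0.59, and none passed the test.

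PSME1 and PSME2 form the interferon-inducible activator PA28. PSME2 had pubertal levels of 14.62 and 14.69 and infant levels of 14.17 and 14.47, with ratios of 0.45 and 0.22 and a mean of 0.33 ± 0.25. PSME1 read 0.16 and 0.20 by A_23_P151614. Its bright probe A_23_P151610 read 0.61 and -0.34, and its spot was saturated in the pubertal channel of array 1, the only saturated spot among the proteasome probes. PSME4, the activator PA200, went the other way, with pubertal levels of 11.13 and 11.40 against 11.84 and 11.50 and ratios of -0.70 and -0.09. The inhibitor PSMF1 read -0.21 and -0.13 by A_24_P122050, and 0.41 and -0.16 by A_23_P79911.

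In 13 genes several probes were tested, 30 probes in all. The means of a gene's probes differed by 0.08 at the median and by under 0.25 in 8 genes. Probes of 1 gene read the same RNA on the same arrays. Their range therefore does not measure the variation between pairs that enters the SE. Some also overlap, with 35 bases shared in PSMA6, 40 in PSMD12 and 50 in PSMC1. PSMA6 had the smallest range (0.0049) and PSMD9 the widest (0.54). On single arrays the probes lay further apart, with the widest range in PSMD3 on array 1 (1.20) and in PSMD1 on array 2 (0.64). Single-probe genes, 29 of the 42, have no second probe to compare.

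**Figure D4:**
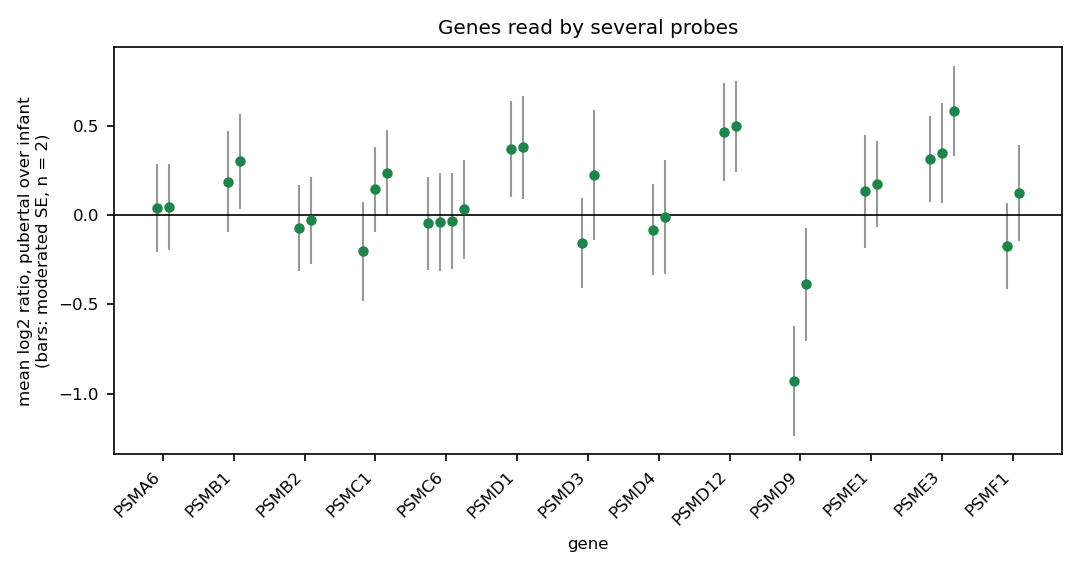
Mean log2 ratio of pubertal over infant for each probe of the 13 genes read by several tested probes, with bars for the moderated SE (n = 2 array pairs). Probes of 1 gene, read with the same RNA on the same arrays, mostly lie within each other's bars. The widest range is that of PSMD9 (0.54), and all 3 probes of PSME3 and both of PSMD12 and PSMD1 lie above 0.

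The authors' deposited table gives log2 ratios from the same 2 arrays for 4848 probes, where the array has 41000. It holds 4 of the 61 proteasome probes, of 3 genes. How probes were chosen for that table was not examined, so a place in it is not read as a result here. For PSMD9 it gives -0.48 and -1.45 by A_23_P203994, and -0.09 and -1.35 by A_24_P116017. The latter is more negative on array 2 than the -0.87 found here with an offset of 50. With an offset of 0 the same probe read 0.16 and -1.32, and with the scanner's processed signals -0.08 and -1.34. In the authors' deposited table PSME3 stands at 1.04 and 0.54 (A_24_P344307), and PSMB4 at 1.16 and -0.10. The directions match those above except for the array 1 value of the dim PSMD9 probe, which lay near 0 in both.

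Genes that act with the proteasome were read through lists of names, each gene by its brightest probe. None passed the adjusted test, and their counts stand beside 23.4% of all probes higher on both arrays and 21.9% lower. Of 11 associated and assembly genes, 4 were higher on both arrays and 1 lower. They include DSCR2, an older name of the core assembly chaperone PSMG1 (0.51 and 0.12), and TXNL1, a thioredoxin-like protein bound to the cap (0.09 and 0.60). Of 17 genes for ubiquitin supply, shuttling and unfolding, 1 was higher and 2 were lower on both arrays, and 14 had opposite signs. Of these 14 genes, 11 were higher in Cy3 on both arrays, as were 25.5% of all probes tested. The shuttle factor UBQLN1 was lower on both (-0.51 and -0.21), and the unfoldase cofactor UFD1L was higher (0.89 and 0.06).

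Of 14 transcription factors and regulators of proteasome genes, 3 were higher on both arrays and 4 lower. MAFK, a small Maf partner of NFE2-like factors, read 0.65 and 0.59 (unadjusted p = 0.0467, adjusted p = 1.00 in limma), and NFE2L3 read 0.62 and 0.32. Of 14 genes of class I antigen processing, listed beside the inducible subunits, 7 were higher and 2 lower. Whether they are expressed together with those subunits in these cultures was not tested. HLA-C read 0.91 and 0.12, although probes of class I genes may bind near-identical copies, and the chaperone CANX read -0.18 and -0.58.

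The cultures also differed in markers of cell types, and the part of this in the proteasome ratios was not tested. In bulk RNA, fewer cells of a type and less RNA per cell cannot be told apart. The marker counts here and in the next paragraph stand beside 23.4% of all probes higher on both arrays and 21.9% lower. All 14 Sertoli markers were above background. On both arrays 7 were higher, CST9L (4.85 and 4.58) and CLDN11 (1.45 and 1.28) furthest, and 1 was lower. Their summed levels were 154.05 and 160.86 in pubertal and 145.76 and 150.26 in infant cultures. Without CST9L, a check added after seeing the data, the sums overlapped (148.21 and 141.89 pubertal, 142.46 and 138.18 infant). Of 11 stromal markers, 10 were lower on both arrays (summed levels 116.32 to 121.33 against 127.42 to 132.56), with FBLN1 at -1.28 and -1.30 and NR2F2 at -1.60 and -1.06. Of 11 germ cell markers, 10 were higher on both (84.8 to 86.9 against 77.3 to 77.4), with PRAME at 1.34 and 1.61 and STK31 at 2.06 and 1.35. Some germ cell markers were dim, with levels of 6.30 to 7.14 for MAGEA4 and 6.35 to 7.87 for SYCP3. PSMA8, left out as dim, had levels of 5.94 to 6.14. TDRD1 was not well above background.

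Of 7 macrophage and leukocyte markers, which bear on the inducible subunits, 3 were higher on both arrays and 1 lower (50.6 to 51.1 against 48.5 to 49.3). CD163 read 2.45 and -0.36 and CSF1R 0.18 and 0.53, and HLA-DRA and AIF1 were not well above background. Of 5 Leydig cell markers, CYP17A1 was lower on both arrays (-2.12 and -1.45), CYP11A1 was higher (0.67 and 0.27) and 3 had opposite signs, with LHCGR not well above background. Of 5 peritubular markers, 1 was higher and 2 were lower on both, the latter being DES (-1.07 and -1.26) and MYH11 (-1.25 and -0.63). Summed levels of the stages overlapped for Leydig (61.567 to 65.672 against 61.695 to 65.048) and peritubular markers (49.953 to 58.696 against 50.536 to 61.41). The check made without CST9L was made for each list, leaving out its gene with the largest mean ratio either way. Without CYP17A1 the Leydig sums did not overlap (53.92 and 51.89 pubertal, 51.18 and 50.56 infant). Germ, stromal and macrophage sums stayed apart in that check, and the peritubular sums still overlapped. None of these marker genes passed limma's adjusted test (smallest adjusted p = 0.106, for CST9L).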

How the data were processed

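Each of the 2 arrays was a 60-base human design (014850, hg17, per the file headers) and the submitters' processing notes name Agilent Feature Extraction 9.5.1.1. In the deposited scanner files, mean spot and local background intensity are raw. Processed intensities and a log10 ratio in the same files were corrected for background and dye by that software, per the file headers. Other deposited columns are flags of spot quality. The authors' deposited table gives log2 ratios, whose normalization is not given in the sources used here.

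Intensities were corrected by normexp (offset 50) and normalized by loess in limma 3.58.1 (R 4.3.3). Outlier spots were left out, control spots had weight 0, and replicate spots were averaged. A probe was kept if both pubertal channels, or both infant channels, were well above background (25774 of 41000). The dye labels set the sign of each ratio as pubertal over infant. Levels per culture came from Aquantile normalization. The test was limma's lmFit with eBayes (two-sided), with Benjamini-Hochberg adjustment over all kept probes with a threshold of 0.05, on 1 residual and 4.333 prior degrees of freedom. The test was also run on ratios simulated from its own fitted spread. That simulation held no dye or pair effects, so it cannot show how the test behaves on these arrays. Both arrays lay on 1 slide and were read in 1 scan, per the file headers, so no batch could be tested.

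Every proteasome probe could be named. In full were given those with the 4 highest and 4 lowest means of shared sign, the 4 furthest apart between arrays, the active-site and inducible subunits, activators, inhibitor, and genes with several probes; of each context and marker list, the 2 genes with the smallest p, and markers not well above background. The members and lists were chosen with earlier results of these data known. Alternatives covered background correction, normalization, filters, probe choice, saturated spots and the intensity trend.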

Additional observations from a re-analysis of the deposited data

How the results depend on the processing

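No proteasome probe passed limma's test under any of the 8 alternatives; the smallest adjusted p among them was 0.625, with an intensity trend. Over the whole array, where no probe passed, 9 did with an intensity trend, and 1 each with median centring, an offset of 0 and a stricter filter. With median centring, 11.61% of all probes tested were higher on both arrays and 10.25% lower. There, 2 of the 59 proteasome probes were higher on both arrays and 1 lower, in place of 16 and 12. Their medians became 1.129 and -0.7384, beside 0.57 and -0.37 for all probes tested, and the mean ratios of PSMA1 (0.1207), PSMA7 (0.04747) and PSMB2 A_24_P284893 (0.1302) changed sign. The other 25 of 28 probes of shared sign kept the direction of their mean there, and 28 of 28 did so with the scanner's processed signals and an offset of 0. The filters, the intensity trend, 1 probe per gene and leaving out saturated probes do not alter a probe's ratio and so cannot change its direction. With 1 probe per gene, 9 of 42 were higher on both arrays (23.47% of all 19616 probes were) and 11 were lower (21.89% of all). Lower probes thus outnumbered higher ones there, unlike the 16 and 12 of the main setting. The proteasome median on array 1 was then 0.005639. With the scanner's processed signals that median was 0.01049. Leaving out 1 array leaves a single ratio with no test, and counts over both arrays then have no value. The test on ratios within each array is itself the paired fit, so no further block was run. Precision is limited by the number of arrays, and saturation by 1 spot of PSME1.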
